A study of Homo sapiens with 6 samples.

Results

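The genes described are the 7 subunits of the CENP-OPQUR and CENP-TW modules of the kinetochore: CENPO, CENPP, CENPQ, CENPU, ITGB3BP (CENP-R), CENPT and CENPW. They were chosen by name from the gene column of the authors' comparison table, where all 7 were found among 13008 genes, CENPU under that name. All 7 passed the filter on low values and were among the 13153 genes tested. Polyadenylated RNA had been sequenced from Tet-FLAG-FOXM1c-hTERT-RPE1, a human retinal pigment epithelial line immortalised with telomerase and made to express FLAG-tagged FOXM1c, a form of the forkhead transcription factor FOXM1, from a tetracycline-inducible promoter. The 3 dox libraries carry the genotype label FOXM1 overexpression and came from cells given 1 µg/mL doxycycline every 24 h for 48 h. The 3 no dox libraries carry the treatment label none and the genotype label WT, although their line name is the same. The sources used here do not say whether the line is 1 clone or whether equal replicate numbers mark a shared culture or day. Doxycycline and the induced transgene cannot be told apart in this design.

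The constitutive centromere-associated network (CCAN) is the inner layer of the kinetochore, which sits on nucleosomes holding the histone variant CENP-A and carries the microtubule-binding outer layer. In the CENP-OPQUR module, CENP-O and CENP-P pair through RWD domains, CENP-Q and CENP-U pair through coiled coils, and CENP-R joins them. The module helps to hold chromosomes on the spindle, and CENP-U is a docking site for the mitotic kinase PLK1. CENP-T and CENP-W pair through histone folds on centromeric DNA, and the long tail of CENP-T recruits the NDC80 and MIS12 complexes of the outer kinetochore.

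FOXM1 itself had 65289, 66830 and 74976 normalised counts in the dox libraries, against 5009, 4383 and 4292 in the no dox libraries, so the groups were far apart in the direction the labels give. Values per library are given throughout in the order of replicates 1, 2 and 3. Library totals ran from 15094498 to 49882123 reads. Of 8 markers of retinal pigment epithelium, BEST1, PMEL, MITF and OTX2 were in the normalised table, while RPE65, RLBP1, TYR and TYRP1 were not. BEST1 (22.8 to 47.9 normalised counts over the libraries) and PMEL (15.8 to 23.3) were low, while MITF had 1868 to 2175 and OTX2 434 to 731. KRT8 and KRT18 of 5 epithelial markers were in it, KRT19, CDH1 and EPCAM were not, and 5 of 6 mesenchymal markers were. None of 3 immune or 3 endothelial markers was in it. The endothelial marker PECAM1 was not found by gene ID among the deposited FPKM values either, so its level is not known. Nothing says that the libraries of a group came from separate cultures, and the spread behind each p-value may therefore be technical.

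In the fit planned as the main one, limma without the replicate number, 0 of the 7 genes passed, against 0.54% of all tested genes. A second fit compared libraries of the same replicate number with each other, a pairing taken from correlations in these same data. In that fit, with doxycycline, transcripts of 5 of the 7 genes fell. Those of CENPT rose at the edge of the threshold (limma adjusted p = 0.0492), and CENPU passed in neither direction. Of all tested genes, 12.4% fell and 10.2% rose by the same fit. CENPP fell most (39.8% lower), followed by CENPW (25.5%), CENPO (24.3%), CENPQ (23.6%) and ITGB3BP (17.9%), while CENPT was 14.9% higher. The 5 that fell were lower in dox in all 3 pairs, a pattern that 28.5% of all tested genes had, and CENPT was higher in all 3, as were 26.5% of all tested genes. Values are the authors' normalised counts, a depth-equalised signal. Changes are dox minus no dox on the log2(normalised count + 1) scale, which understates changes of low genes. In such bulk RNA, fewer cells in a cell cycle phase and less RNA per cell cannot be told apart.

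The calls turned on the test used (for CENPO, CENPP and CENPW) and on whether the replicate number entered the fit. In limma without it, 0 of the 7 genes passed at an adjusted p under 0.05, where 0.54% of all tested genes did, and CENPO, CENPP, CENPQ and CENPW had an unadjusted p under 0.05, all 4 lower in dox, as were 7.06% of all tested genes at that mark. With the number as a block, limma called 5 lower, against 12.4% of all tested genes, and 1 higher, against 10.2%. EdgeR's quasi-likelihood test on the reads recovered from the deposited CPM called 0 of the 7 without the block (0.515% of all genes tested). With the block it called the same 5 lower (12.1% of all genes) and CENPT higher (11.4%). DESeq2 on those reads, without the block, called CENPO, CENPP and CENPW lower, against 2.32% of all genes. In the authors' deposited table CENPP was the 1 gene of the 7 with an adjusted p under 0.05 (log2 change -0.72, adjusted p = 0.0448), in a table where 1.52% of genes were called lower.

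**Figure D1:**
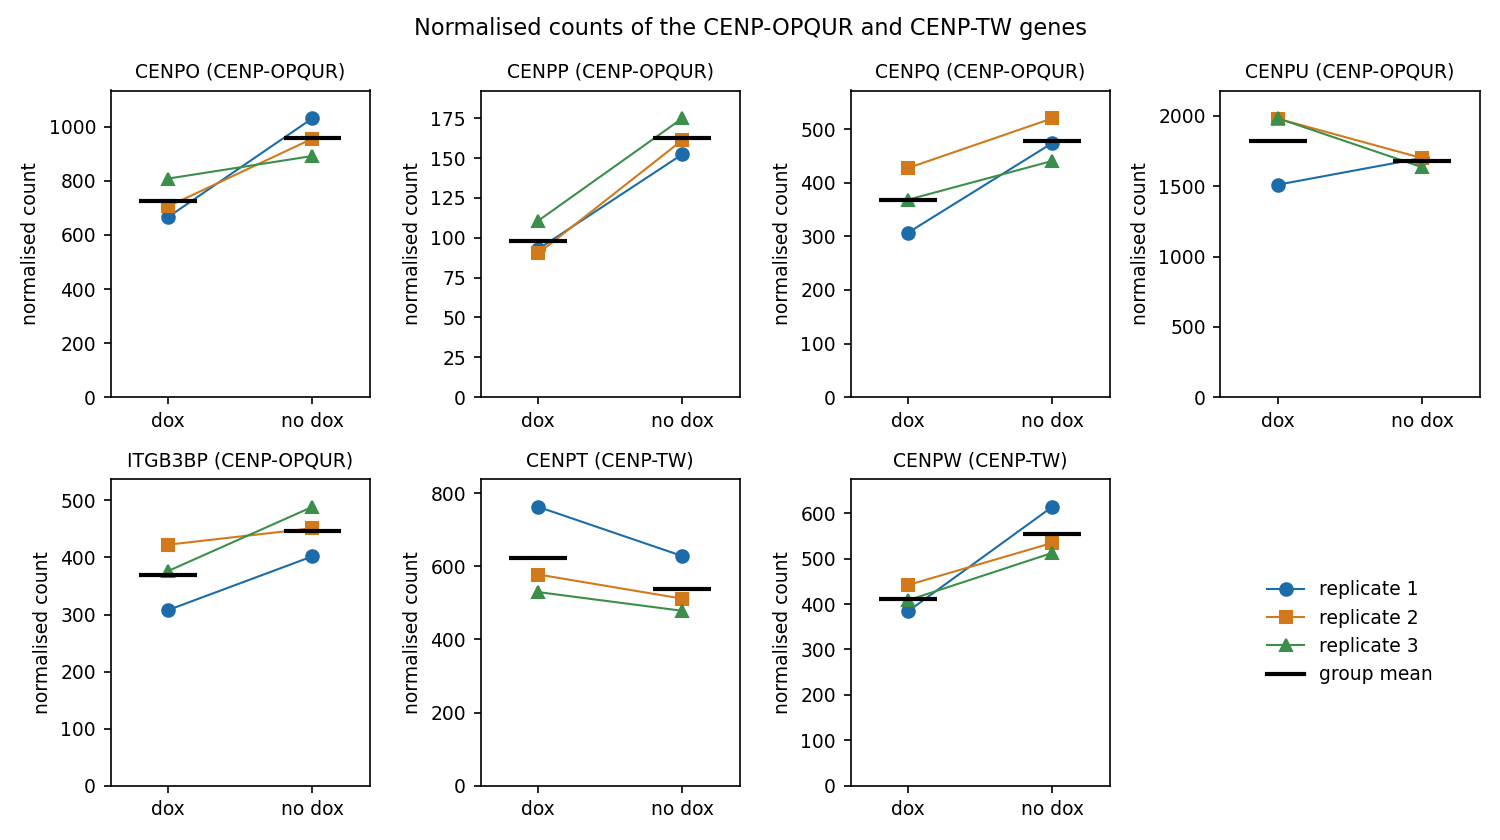
Normalised counts of the 7 genes in each library, dox on the left and no dox on the right of each panel, with lines joining libraries of the same replicate number and black bars at the group means. All 3 lines run lower in dox for CENPO, CENPP, CENPQ, ITGB3BP and CENPW and higher in dox for CENPT, and for CENPU 2 lines are higher and 1 is lower.

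The promoters of the 7 genes were searched for letters of cell cycle elements, using the RefSeq windows of GRCh38.p14 from 250 bases before to 50 after each start. All 7 genes matched, with 9 windows, 3 of them for CENPP. The cell cycle genes homology region (CHR, TTTGAA or TTCGAA), which the MuvB core of DREAM, B-MYB and FOXM1 complexes binds, was found in CENPO (37 bases after the start, counting the start as 1) and CENPW (18 after), and in 16.4% of all 35116 windows. The forkhead core TAAACA was found in CENPQ (17 after, as TGTTTA) and in the third CENPP window, and in 12.3% of all windows. Of the E2F letters TTTGGCGC, TTTCCCGC, TTTCGCGC and TTTGCCGC, CENPU held 1 match (3.31% of all windows held any), and CCAAT was found in CENPQ, CENPU, CENPW and the third CENPP window (34.6% of all windows). Both strands were searched, no match overlapped another, and ITGB3BP, CENPT and the first and second CENPP windows held none. The windows of CENPO, CENPW and CENPQ are shown for their CHR and forkhead matches. That of CENPT is shown as an example without a match, and ITGB3BP, lower in dox with the block, had none either. The windows shown are written 5′ to 3′ on the strand of the gene, with matched letters in capitals. They lie at chr2:24793175-24793474 (plus), chr6:126339865-126340164 (plus), chr6:49463120-49463419 (plus) and chr16:67847644-67847943 (minus). A match is a description of letters, not of binding.
CENPO: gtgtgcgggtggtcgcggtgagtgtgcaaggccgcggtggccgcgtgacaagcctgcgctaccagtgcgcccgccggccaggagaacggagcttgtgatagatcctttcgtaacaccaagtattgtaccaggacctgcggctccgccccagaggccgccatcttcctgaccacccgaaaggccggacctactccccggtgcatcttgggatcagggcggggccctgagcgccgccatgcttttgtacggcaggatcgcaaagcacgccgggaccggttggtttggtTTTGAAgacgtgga
CENPW: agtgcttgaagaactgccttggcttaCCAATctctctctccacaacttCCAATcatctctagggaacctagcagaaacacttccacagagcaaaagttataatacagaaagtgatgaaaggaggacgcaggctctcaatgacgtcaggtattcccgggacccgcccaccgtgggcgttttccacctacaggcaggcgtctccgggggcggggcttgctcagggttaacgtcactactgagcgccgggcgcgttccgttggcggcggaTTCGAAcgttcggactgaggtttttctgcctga
CENPQ: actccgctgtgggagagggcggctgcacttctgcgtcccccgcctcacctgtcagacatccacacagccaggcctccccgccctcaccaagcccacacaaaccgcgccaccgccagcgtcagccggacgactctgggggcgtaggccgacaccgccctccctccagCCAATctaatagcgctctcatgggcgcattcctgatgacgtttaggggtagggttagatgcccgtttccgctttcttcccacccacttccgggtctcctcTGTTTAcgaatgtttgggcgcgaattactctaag
CENPT: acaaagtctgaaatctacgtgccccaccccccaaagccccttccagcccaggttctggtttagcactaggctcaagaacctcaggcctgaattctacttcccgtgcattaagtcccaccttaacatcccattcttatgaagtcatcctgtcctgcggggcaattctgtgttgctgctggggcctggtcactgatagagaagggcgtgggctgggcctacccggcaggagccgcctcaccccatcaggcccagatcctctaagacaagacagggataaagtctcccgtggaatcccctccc

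CENPO and CENPP, the RWD-domain pair, were both lower in dox. CENPO had 667, 706 and 808 normalised counts in the dox libraries, against 1031, 956 and 892 in the no dox libraries. The dox libraries all lay below the no dox libraries, with means of 727 ± 73.3 in dox and 960 ± 69.6 in no dox (SD, n = 3 each). The log2 change was -0.40 (SE 0.10 without the block, limma adjusted p = 0.135, and SE 0.084 with it, adjusted p = 0.00839). Its size was uneven over the pairs, at -0.63, -0.44 and -0.14 in pairs 1, 2 and 3.

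CENPP had 92.9, 90.2 and 111 normalised counts in the dox libraries, against 152, 161 and 175 in the no dox libraries. The groups were well apart, and the pairs gave close changes of -0.71, -0.83 and -0.66. The log2 change of -0.73 was the largest among the 7 genes (SE 0.15 without the block, limma adjusted p = 0.0818, and SE 0.11 with it, adjusted p = 0.00188). CENPP was also the gene with the fewest reads, from 90 to 183 per library, so its counting error is the largest of the set. The ratio of CENPO to CENPP normalised counts was 7.18, 7.82 and 7.30 in the dox libraries, against 6.77, 5.93 and 5.10 in the no dox libraries. All dox ratios lay above all no dox ratios, since CENPP was lower by more, though the gap in pair 1 was small (0.079 on the log2 scale, against 0.39 and 0.51 in pairs 2 and 3).

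CENPQ and CENPU, the coiled-coil pair, did not move together. CENPQ had 307, 427 and 368 normalised counts in the dox libraries, against 474, 520.0 and 441 in the no dox libraries. Every dox library lay below every no dox library, and the log2 change was -0.39 (SE 0.14 without the block, limma adjusted p = 0.291, and SE 0.087 with it, adjusted p = 0.0115). Pair 1 gave the largest fall (-0.62), with -0.28 and -0.26 in pairs 2 and 3.

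CENPU, the most abundant of the 7 in counts, had 1511, 1979 and 1982 normalised counts in the dox libraries, against 1700.5, 1699.6 and 1635 in the no dox libraries. Dox replicate 1 lay below all no dox libraries and the other dox libraries above them. The log2 change was 0.11, with a 95% interval from -0.16 to 0.37 without the block (limma adjusted p = 0.787) and from -0.066 to 0.28 with it (adjusted p = 0.356), so a small change either way was not resolved. With pair 1 left out of the blocked fit the change was 0.25 (limma adjusted p = 0.000189), so the absence of a call rested on that pair. That refit, on fewer libraries, called 3835 of all 13153 tested genes, against 2965 with all pairs. With pair 2 or 3 left out the change was 0.054 and 0.025. Without the block it was 0.24, 0.044 and 0.043 with dox replicate 1, 2 or 3 left out (limma adjusted p from 0.265 to 0.951).

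The ratio of CENPU to CENPQ removes whatever a library does to both. It was 4.92, 4.63 and 5.38 in the dox libraries, against 3.59, 3.27 and 3.71 in the no dox libraries. Dox ratios were all higher, and the 3 pairs gave nearly the same difference on the log2 scale (0.45, 0.50 and 0.54, mean 0.50, SD 0.041). Pair 1, where CENPU was lower in dox, was therefore no exception in the ratio, since CENPQ was lower there by more.

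ITGB3BP encodes CENP-R, also known as beta3-endonexin for its binding to the tail of integrin beta3. It had 308, 422 and 376 normalised counts in the dox libraries, against 402, 451 and 489 in the no dox libraries. The groups overlapped, because dox replicate 2 exceeded no dox replicate 1, but each dox library was below its own partner. The log2 change was -0.28 (SE 0.14 without the block, limma adjusted p = 0.454, and SE 0.082 with it, adjusted p = 0.0327), and the blocked call was lost without pair 3 (adjusted p = 0.163). Without dox replicate 1 and without the block, the change was -0.16.

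The histone-fold partners CENPT and CENPW moved in opposite directions. CENPT had 763, 578 and 529 normalised counts in the dox libraries, against 628, 512 and 478 in the no dox libraries. The groups overlapped and replicate 1 was high in both, while within the pairs the differences were alike at 0.28, 0.17 and 0.15. The log2 change was 0.20 (SE 0.16 without the block, limma adjusted p = 0.697, and SE 0.064 with it, adjusted p = 0.0492). The blocked call lay at the threshold and was lost without pair 1, 2 or 3, with changes from 0.16 to 0.23 and adjusted p from 0.101 to 0.180. Without the block, the change was 0.046 without dox replicate 1, 0.31 without dox replicate 3, 0.31 without no dox replicate 1 and 0.12 without no dox replicate 3.

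CENPW had 384, 442 and 408 normalised counts in the dox libraries, against 614, 535 and 513 in the no dox libraries. No dox library reached the lowest no dox library. The log2 change was -0.43 (SE 0.11 without the block, limma adjusted p = 0.133, and SE 0.087 with it, adjusted p = 0.00748), with -0.67, -0.27 and -0.33 in pairs 1, 2 and 3. The blocked call held without pair 1, 2 or 3 (adjusted p from 0.00454 to 0.0156). The blocked calls of CENPO, CENPP and CENPQ also held with any 1 pair left out. That of CENPO was near the threshold without pair 2 (limma adjusted p = 0.0439). These refits, on fewer libraries, called 3835, 1414 and 1779 of all 13153 tested genes without pair 1, 2 or 3. Groups did not overlap for CENPW, CENPO, CENPP and CENPQ, and they did not overlap in either direction for 19.1% of all tested genes.

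The CENPT to CENPW ratio was near 1 without doxycycline and higher with it. It was 1.98, 1.31 and 1.30 in the dox libraries, against 1.02, 0.957 and 0.933 in the no dox libraries. On the log2 scale the pairs differed by 0.95, 0.45 and 0.47 (mean 0.63, SD 0.29), so dox replicate 1 stood apart in size but not in direction. These are ratios of counts, not of RNA molecules, and the lengths of the transcripts cancel only in the comparison between groups. No test is given for the ratios, since the pairings were set with these values known.

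**Figure D2:**
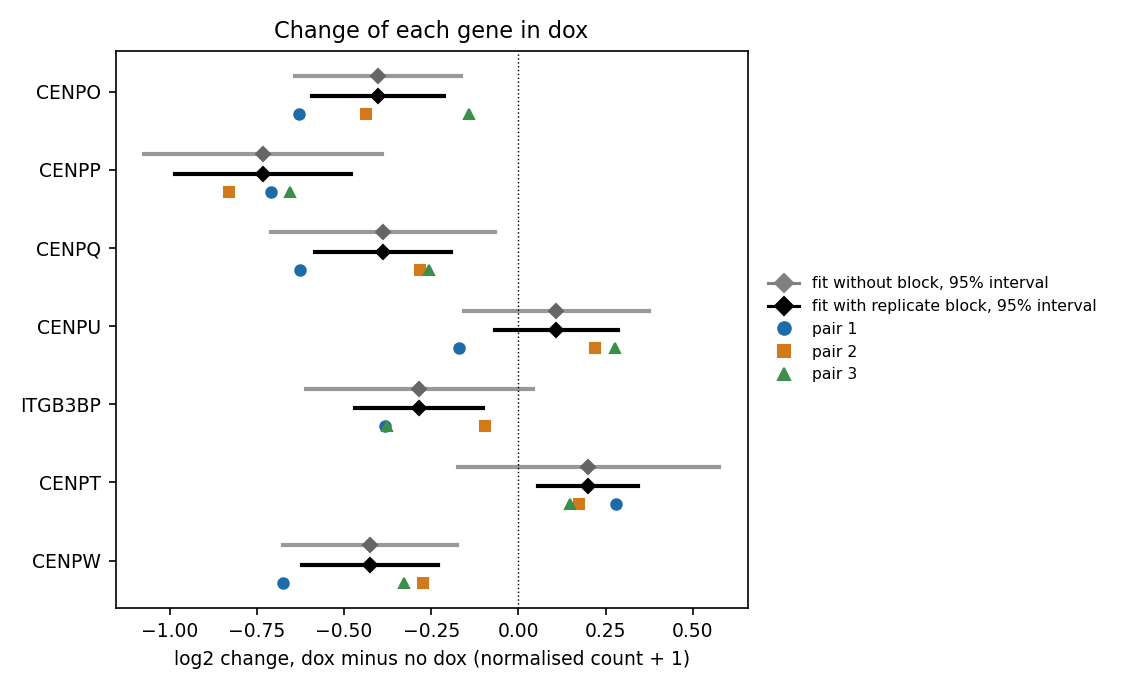
Log2 change in dox of each of the 7 genes, with 95% intervals from limma without (grey) and with (black) the replicate block, and the change within each pair of libraries as coloured symbols. Intervals without the block cross 0 for CENPU, ITGB3BP and CENPT, and with the block only that of CENPU does.

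**Figure D3:**
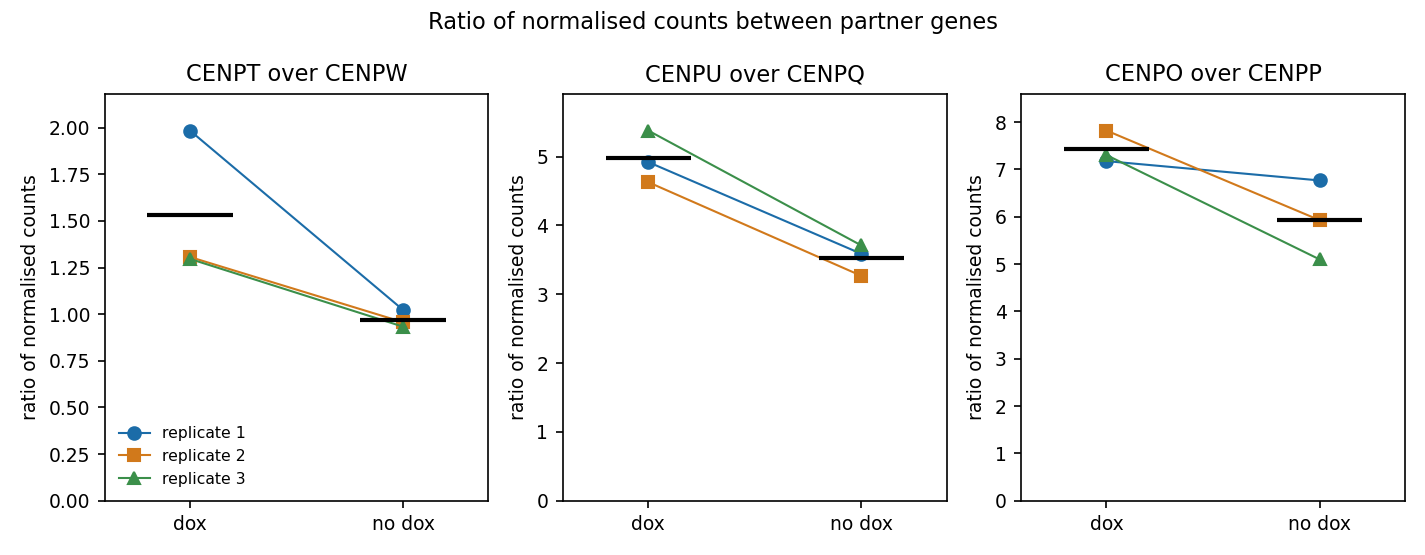
Ratios of normalised counts of CENPT over CENPW, CENPU over CENPQ and CENPO over CENPP in each library, dox on the left and no dox on the right of each panel, with lines joining libraries of the same replicate number and black bars at the group means. Each ratio was higher in dox in all 3 pairs, and the lines of CENPU over CENPQ are nearly parallel.

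Over the 5 CENP-OPQUR genes the mean log2 change was -0.34 (SD over the pairs 0.14, with -0.50, -0.29 and -0.23 in pairs 1, 2 and 3). Without CENPU, left out after its value was seen, the other 4 had a mean of -0.45 (SD 0.12). The CENP-TW pair averaged -0.11 (SD 0.077), a mean of opposite changes. The median over all 7 was -0.39, and that over all tested genes was -0.0022.

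Expression level was compared per length as CPM per kilobase of merged exon, with lengths from GENCODE 29 by gene ID. The FPKM values that the authors deposited divide by a gene width that exceeds the whole gene interval for 16.4% of genes, CENPT among them (width 38619 bases in an interval of 19655), so they were not used to rank genes. CENPU (21.5 ± 3.50 in dox, 19.4 ± 0.932 in no dox; SD, n = 3 each) and CENPW (18.05 ± 1.84 in dox, 23.7 ± 2.33 in no dox) were the highest. CENPU came first in dox, where their ranges overlapped, and CENPW first in no dox, where they did not. CENPQ followed at 7.40 ± 1.41 in dox and 9.42 ± 1.07 in no dox, then CENPO at 4.58 ± 0.416 in dox and 5.93 ± 0.489 in no dox.

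CENPT had 3.90 ± 0.736 CPM per kilobase in dox and 3.31 ± 0.488 in no dox, so its range met that of CENPO in dox but not in no dox. ITGB3BP had 2.36 ± 0.425 in dox and 2.80 ± 0.273 in no dox, and its range met that of CENPT in no dox but not in dox. CENPP was lowest, at 0.351 ± 0.0269 in dox and 0.571 ± 0.0424 in no dox. Its merged exons span 9794 bases, against 795 for CENPW, and a gene whose cells use few of its annotated exons is placed too low on this scale.

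Some of these genes share bases with others on the opposite strand, and the sources used here leave the strand setting of the counting unnamed. CENPO (chromosome 2, 25016005 to 25045245 of hg19, plus strand) overlaps ADCY3, an adenylyl cyclase gene on the other strand, over 3208 bases. ADCY3 changed by -0.43 with the block (limma adjusted p = 0.00188, and 0.121 without it), a value close to that of CENPO. CENPT (chromosome 16, 67862060 to 67881714, minus strand) overlaps THAP11, a zinc finger gene on the other strand, over 1885 bases, and THAP11 went the other way (-0.35, limma adjusted p = 0.00621 with the block and 0.172 without it). CENPT also overlaps NUTF2, a nuclear import factor gene (-0.031, adjusted p = 0.635 with the block), over 1080 bases. ITGB3BP (chromosome 1, 63906441 to 64059392, minus strand) overlaps EFCAB7 (0.085, adjusted p = 0.583) over 49322 bases, CENPU (chromosome 4, 185615772 to 185655287, minus strand) overlaps PRIMPOL (-0.13, adjusted p = 0.292) over 346, and CENPP (chromosome 9, 95087766 to 95382815, plus strand) overlaps IPPK (0.11, adjusted p = 0.516) over 7350. The part of reads from these overlaps in the changes was not tested.

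Of the 4 genes that start within 1000 bases on the other strand, 1 passed with the block. In that fit 12.4% of all tested genes fell and 10.2% rose. NOL8, which starts 152 bases inside CENPP, had a log2 change of 0.18 (limma adjusted p = 0.0569 with the block). MUT, which starts 187 bases from CENPQ (chromosome 6, 49431091 to 49460820, plus strand), had 0.0015 (adjusted p = 0.988), and PTRHD1, 246 bases inside CENPO, had 0.097 (adjusted p = 0.372). PGM1, a glycogen metabolism gene that starts 445 bases inside ITGB3BP, fell by 0.29 with the block (adjusted p = 0.00198). CENPW (chromosome 6, 126661320 to 126670021, plus strand) had no neighbour of either kind in the table.

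Among the other CCAN subunits, 5 of 9 fell with the block and none rose, with a median log2 change of -0.33, against -0.39 for the 7 genes. Of all tested genes, 12.4% fell and 10.2% rose by that fit. CENPM (-0.78, limma adjusted p = 0.000556 with the block) and CENPN (-0.44, adjusted p = 0.00135) had the smallest p. CENPM was the 1 subunit called without the block (limma adjusted p = 0.0449), where 0.54% of all tested genes were called. CENPC, the scaffold that links CENP-A nucleosomes to the rest, was like CENPT in sign, with a change of 0.26 that did not pass (adjusted p = 0.0672 with the block). The histone-fold subunits CENPS and CENPX, listed as APITD1 and STRA13, which can join CENP-TW, had -0.084 and -0.11 and did not pass (adjusted p = 0.531 and 0.212 with the block). Of 5 genes of CENP-A and its deposition (median -0.086), 2 fell with the block. Among them was the CENP-A chaperone gene HJURP (-0.35, limma adjusted p = 0.0052, and 0.377 without the block).

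The KMN network, which CENP-T recruits, had the lowest median of the lists at -0.69. With the block 7 of its 10 genes fell, against 12.4% of all tested genes. Without it limma called 1 of them, lower in dox, where 0.54% of all tested genes were called. CASC5 (KNL1) changed by -1.03 (limma adjusted p = 0.000119 with the block) and NDC80 by -0.89 (adjusted p = 0.000275), while the MIS12 complex genes MIS12 (-0.044), PMF1 (-0.053) and NSL1 (0.051) did not pass. CENPT rose with the block, where most of the listed KMN genes fell, but only at the edge of the threshold (limma adjusted p = 0.0492). That call was lost whichever pair was left out, and CENPT did not pass in limma without the block (adjusted p = 0.697). Of 12 known binding partners of the 7 proteins, 5 fell and none rose with the block (median -0.22). Without it limma called 0 of them. The kinesin gene CENPE (-0.50, adjusted p = 0.000633) and CDK1 (-0.39, adjusted p = 0.00241) had the smallest p, and PLK1, which docks on CENP-U, changed by -0.52 (adjusted p = 0.00873). ITGB3, whose product CENP-R binds, had a change of -0.37 that did not pass (adjusted p = 0.201).

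Most, but not all, of the listed S phase and G2/M genes fell with the block. Limma without it called 0 of either list, where 0.54% of all tested genes were called. By the blocked fit 12.4% of all tested genes fell and 10.2% rose. Of 16 S phase genes 11 fell and 1, CCNE1 (0.66), rose with the block (median -0.43), MCM4 (-0.57) and MCM3 (-0.45) having the smallest p. Of 14 G2/M genes 8 fell and 1, CCNB2 (0.42), rose (median -0.32), HMMR (-0.75) and CENPE having the smallest p. The median of the S phase genes was -0.63, -0.38 and -0.28 in pairs 1, 2 and 3, and that of the G2/M genes -0.56, -0.18 and -0.13, so pair 1 was lowest in both. It was also lowest for CENPO, CENPQ, CENPU, CENPW and, by a narrow margin, ITGB3BP (-0.383, against -0.376 in pair 3). CENPP was lowest in pair 2 (-0.83, against -0.71 in pair 1), and CENPT was highest in pair 1 (0.28). The part of cell cycle phase in the changes of the 7 genes was not tested.

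**Figure D4:**
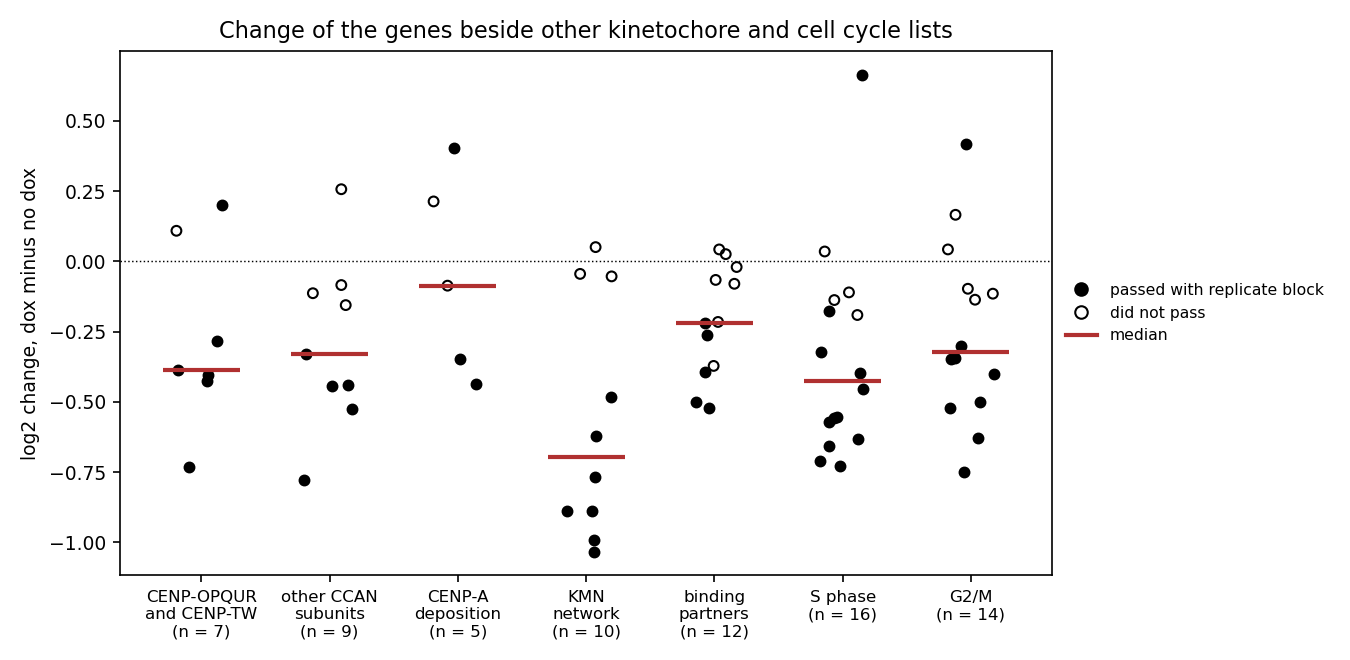
Log2 change in dox of single genes (points) in the 7 CENP-OPQUR and CENP-TW genes and in 6 lists of other genes, filled where the gene passed limma with the replicate block, with a red line at each median. The median of the 7 genes, -0.39, lies between that of the KMN network, -0.69, and that of the CENP-A deposition genes, -0.086, and CENPE and PLK1 and CCNB1 stand in both the binding partner and G2/M lists.

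Likeness across the 6 libraries, as Pearson's r of log2 values among genes at or above the median level, gave each of the 7 genes other neighbours. Libraries share their group and replicate number, and from 7 genes (for CENPU) to 100 (for CENPT) of 6577 or fewer compared reached 0.95, so the names are descriptions only. CENPW was most like E2F1 (r = 0.999), HAT1 (0.992) and ZWINT (0.992). CENPQ was most like SMC1A (0.996), KIF22 (0.995) and BUB1B (0.993). CENPT was most like GTPBP4 (0.996), POLR1A (0.994) and DDX21 (0.994). CENPP was most like FBXO33 (0.998), MSN (0.995) and FOSL1 (0.993), CENPO like TXNDC5 (0.994), IP6K1 (0.993) and SORBS3 (0.983), ITGB3BP like ARF5 (0.989), RAPGEF1 (0.981) and CDC5L (0.978), and CENPU like ABHD12 (0.978), PRPSAP1 (0.975) and PSMB7 (0.973).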

How the data were processed

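The samples were 6 RNA-seq libraries, grouped and numbered from their titles. Per the submitters' processing notes the tools included TopHat, Trimmomatic, bcl2fastq and edgeR, with no roles named, and the build was hg19. How strand and multiply mapped reads were handled was not given in the sources used here. The authors deposited, for 13161 genes, a signal of normalised counts with near-equal library totals and no stated formula. The authors deposited FPKM for 57773 genes, and per the file headers their comparison table holds CPM, log2 fold changes, log2 CPM, a likelihood ratio score and p-values for 13008 genes. All deposited CPM values were whole multiples of 1 read (100% in each library, tolerance 0.01), which gave whole reads and library totals.

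Genes with 10 or more normalised counts in 3 or more libraries were kept (8 removed) and compared by two-sided limma with a mean trend on log2(normalised count + 1), with Benjamini-Hochberg adjustment over all tested genes at 0.05. Equal replicate numbers were taken to pair libraries, because across genes their deviations from the means of their groups had correlations of 0.745, 0.726 and 0.768. The labels do not say what the numbers share. Residual degrees of freedom were 4 without and 2 with the block. No 2 libraries agreed within sampling noise (lowest chi-square per degree of freedom 16.0). Named genes were the members, FOXM1, the 2 genes of each list with the smallest blocked p, neighbours and the 3 most alike genes per member. The result of 1 gene that this rule names is not reported here. CCNE1, CCNB2, CENPC, the CENP-S and CENP-X genes, MIS12, PMF1, NSL1, PLK1 and ITGB3 were added after their values were seen. Members and lists were chosen with earlier results of these data known. The fits were tested on simulated data in which both groups shared an effect of the replicate number. That test therefore assumes the pairing and cannot show whether it holds. Fits used DESeq2 1.42.0, edgeR 4.0.16 and limma 3.58.1 in R 4.3.3, and summaries pandas 2.3.3, matplotlib 3.10.9 and numpy 2.4.6 in Python 3.11.15.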

Additional observations from a re-analysis of the deposited data

How the results depend on the processing

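Over 22 alternative settings none of the 7 genes changed direction. Of 154 values, 124 stayed on their side of the threshold and 30 passed where the fit without the block did not, and these came from fits with the replicate block or from DESeq2. Without the block 71 genes changed (42 higher, 29 lower), and the replicate block gave 2965 (1338 and 1627), 6 of the 7 genes and 39 listed genes, against 0 and 2 without it. EdgeR's quasi-likelihood test with the replicate block on recovered reads gave 3058 (1484 and 1574), 6 and 39. The blocked fit without replicate 1, 2 or 3 gave 3835, 1414 and 1779 genes (1761, 584 and 772 higher and 2074, 830 and 1007 lower), 6, 5 and 4 of the 7 and 43, 35 and 40 listed genes. DESeq2 gave 519 (218 and 301), 3 and 23, and FPKM gave 31 (26 and 5), 0 and 0. TMM scaling and edgeR without the block each left 1 listed gene. Leaving out each library in turn without the block gave 3 to 21 genes, 3 to 16 higher and 0 to 5 lower, with 0 listed genes and 0 of the 7. Leaving out 1 library moved the changes of CENPT, CENPU and ITGB3BP by over 1.5 times. Reads per library limit CENPP (90 to 183) most. The causes of these differences were not tested.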
